A study of Mus musculus with 2 samples.

Results

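The Arraystar Mouse LncRNA v2.0 array carries a block of 213 custom probes, each with 1 spot, for mouse transcripts that are named in the files by an Ensembl, UCSC or GenBank identifier. They are 213 of the 59709 probes left after control spots and negative-sequence probes, and each targets a different transcript. They were picked by name alone, as the probes outside the standard gene, lincRNA, ultraconserved-region and negative-sequence series whose target is not a protein-coding RefSeq mRNA. No measured value enters that rule, though earlier results of these data were known when it was chosen. By identifier, 76 are Ensembl transcripts, 68 are cDNAs with an AK accession, 51 are UCSC known genes, 7 are ESTs, 6 are other GenBank cDNAs and 5 are RefSeq noncoding RNAs.

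The study asked which long noncoding RNAs (LncRNAs) differ in the liver after ischemia/reperfusion (I/R), and it had 1 control array and 1 I/R array, in a single colour (Cy3). All mice were male C57BL/6J, 10 to 12 weeks old. In the I/R group the blood supply of the left and median lobes was clamped (70% partial ischemia) for 60 min and restored for 6 h, and RNA of 3 livers was mixed for the array. The control is called a control in the labels and a sham in the study, and the labels do not say if its RNA came from one liver or several. With 1 array per group there is no replicate check, so no test and no p-value are given, and mixing livers hides the difference between mice. A value is the processed signal of a spot, a brightness in arbitrary units with background subtracted. A fold is I/R over control after quantile normalization, which gives both arrays the same distribution of signals. The 95% interval given with a fold comes from the scanner's error for both spots and covers the measurement of the spot only.

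A long noncoding RNA is a transcript longer than a small RNA that is not read into protein. Some such RNAs act in the nucleus on transcription or chromatin, others bind proteins or small RNAs in the cytoplasm, and for most no role is known. Ischemia starves the liver of oxygen and nutrients, and the return of blood sets off oxidative stress, inflammation and the death of hepatocytes, the main cell of the liver. AK accessions largely come from large-scale sequencing of full-length mouse cDNA, while Ensembl and UCSC identifiers come from annotation of the genome, so the identifiers of the custom probes also say where each transcript model came from.

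The table of RefSeq genes used for names matched 4 of the 213 transcripts. NR_015516 and NR_027950 both belong to 4930526I15Rik, listed as a LncRNA gene, NR_003547 belongs to Zf12, listed as a transcribed pseudogene, and NR_028110 belongs to Ppp2r3d, listed as protein-coding. That class is given per gene, and NR_028110 itself is named as a RefSeq noncoding RNA, so the class of its gene does not decide its label. The label noncoding could not be checked for the transcripts without a match. Of 32 marker genes in 7 lists for cells of the liver, 0 are named in the files, so the tissue label could not be checked against them. Signal in bulk liver does not separate fewer cells of a type from less RNA per cell.

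The 2 custom probes for 4930526I15Rik, the one gene with 2 of them by name, gave like values. The 4 matched transcripts were named after their values were seen. NR_015516 had a signal of 841 on the control array and 818 on the I/R array, a fold of 0.951 (95% measurement interval 0.720 to 1.25). NR_027950 went from 935 to 872, a fold of 0.915 (0.693 to 1.21). Both intervals hold 1, so the I/R array was not distinguishable from the control array for either. The local background of NR_015516 was flagged on 1 array. Among the 4 matched transcripts this is the one gene named by 2, so the promoter, its start region, is printed here. It spans chr9:124423537-124423836 on the plus strand of GRCm38.p6, around the start of the gene as RefSeq gives it, and mostly before it. Capitals mark its single match to a GC box, GGGCGG or its reverse complement CCGCCC, searched on both strands.

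4930526I15Rik promoter: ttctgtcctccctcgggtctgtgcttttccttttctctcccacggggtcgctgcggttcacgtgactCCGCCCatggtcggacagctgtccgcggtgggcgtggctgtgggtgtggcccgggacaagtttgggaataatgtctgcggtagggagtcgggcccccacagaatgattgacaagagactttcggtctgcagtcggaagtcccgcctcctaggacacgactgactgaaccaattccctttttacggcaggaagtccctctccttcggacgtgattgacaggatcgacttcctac

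Of all 32851 RefSeq promoter windows of this length in the table, 35.7% hold that motif. TATAAA, searched on both strands, has 0 matches in the window, and 13.6% of the promoters hold it. The window holds 21 CpG dinucleotides, against a median of 7 over all promoters, and 24.8% of promoters hold at least as many. Its GC content is 58.3%, against a median of 52.7%.

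Zf12 went from a signal of 605 on the control array to 851 on the I/R array, a fold of 1.37 (1.04 to 1.80). It was higher on the I/R array by more than the spot error, yet under the 1.5-fold used to call a rise. NR_028110, the RefSeq noncoding RNA matched to Ppp2r3d, went from 50.3 to 60.6, a fold of 1.21 (0.886 to 1.66), within the spot error.

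A probe was called detected when the scanner software flagged its signal on each array as positive and significant against background, which is the flag nearest to the one in the study's methods. By this rule 173 of the 213 transcripts (81.2%) were detected, beside 79.9% of all probes. A stricter flag, which asks for a signal well above background, was met on both arrays by 138 (64.8%), beside 62.3% of all probes. Of the remaining 75, 11 were well above background on the control array alone (5.16% of the 213, beside 7.12% of all probes), 5 on the I/R array alone (2.35%, beside 1.93%) and 59 on neither (27.7%, beside 28.6%). Signals of 29 transcripts on the control array and 33 on the I/R array lay at the lowest value of the array, and 22 transcripts lay there on both. Detection differed by identifier. It was 67 of 76 Ensembl transcripts (88.2%), 41 of 51 UCSC known genes (80.4%), 53 of 68 AK cDNAs (77.9%), 5 of 5 RefSeq noncoding RNAs, 4 of 6 other GenBank cDNAs and 3 of 7 ESTs (42.9%). Among other kinds of noncoding probe on the same arrays the share was 75.9% of 3457 for lincRNA exons, 70.7% of 1209 for cDNAs and ESTs on probes named in the lincRNA style, and 57.2% of 962 for ultraconserved regions. It was 60.7% of 1217 for probes named for human lincRNAs and 61.1% of 691 for those named for mouse lincRNAs. Probes for protein-coding mRNAs named in the files were detected at 86.4% of 118.

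The arrays are alike in range. Non-control spots had a median signal of 39.6 (control) and 39.3 (I/R), and 68.7% and 63.4% of them were well above background. The lowest signal well above background was 12.7 and 17.3. Probes for 20 negative sequences, which match no mouse transcript by design, had 1200 spots, of which 35.2% were called detected and 11.8% well above background on both arrays. A normalized signal above the 95th percentile of those spots, 57.2 on the control array and 53.0 on the I/R array, was reached on both arrays by 100 of the 213 transcripts (46.9%). The other detected transcripts have signals that some negative-sequence spots also reached. The 1200 spots repeat 20 sequences and are not independent, and how many sequences gave the brightest spots was not counted. Of the 213 spots, 0 were saturated and 0 were flagged as outliers, and 14 had a local background flagged on at least 1 array.

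**Figure D1:**
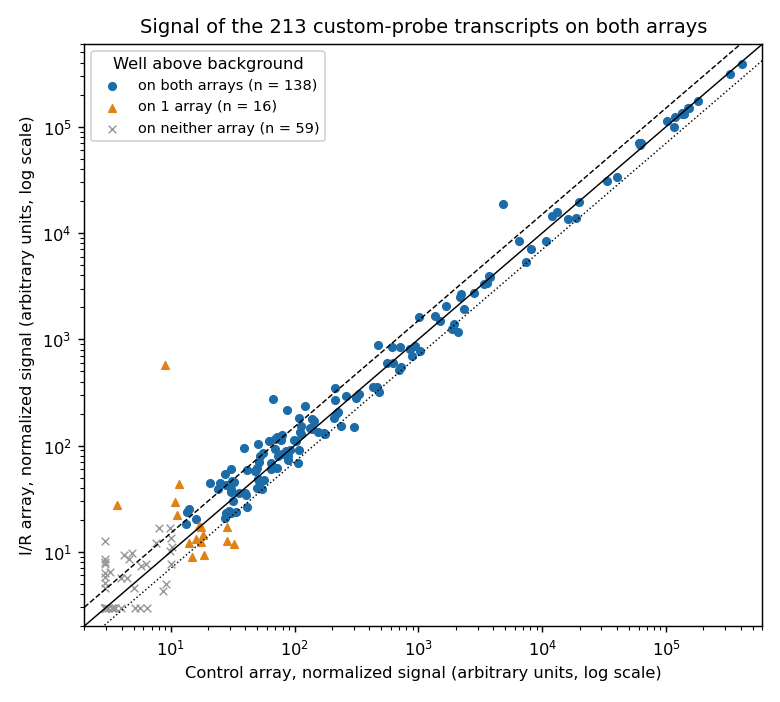
Normalized signal (arbitrary units, both axes logarithmic) of the 213 custom-probe transcripts on the control array (horizontal) and the I/R array (vertical). Circles are the 138 transcripts well above background on both arrays, triangles the 16 on 1 array and crosses the 59 on neither; the solid line is a fold of 1, the dashed line 1.5 and the dotted line 0.7. Most circles lie between the outer lines, and those far above the dashed line include uc009shf.1 (4.10) and ENSMUST00000159764 (3.93).

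Among the 173 detected transcripts, 37 (21.4%) had a fold of at least 1.5, beside 14.2% of all detected probes, and 14 (8.09%) had a fold of at most 0.7, beside 16.3%. The other 122 lay between. The median log2 fold was 0.05, beside -0.06 over all detected probes, and the middle of the list ran from -0.25 to 0.46 by quartiles. At 2-fold the custom probes stood close to the array, with 13 (7.51%) at a fold of at least 2, beside 6.88%, and 5 (2.89%) at 0.5 or less, beside 4.5%. The probes for protein-coding mRNAs named in the files also had more rises than falls, with 22.5% of 102 detected at 1.5 or more and 10.8% at 0.7 or less. With the measurement interval also on the side of the change, 29 were raised and 9 lowered, beside 10.4% and 10.4% of all detected probes.

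Part of these counts comes from dim spots. Detected probes were divided into 3 equal classes by mean normalized signal over both arrays, with edges at 33.1 and 198. In the dim class 17 of 48 custom-probe transcripts (35.4%) were at 1.5 or more, beside 21.5% of all probes, and 8 (16.7%) at 0.7 or less, beside 23.6%. In the middle class 16 of 61 (26.2%) were raised, beside 12.1%, and 2 (3.28%) lowered, beside 13.7%. In the bright class 4 of 64 (6.25%) were raised, beside 9.03%, and 4 (6.25%) lowered, beside 11.6%. The median standard error of the log2 fold was 0.49 in the dim class, 0.22 in the middle and 0.20 in the bright one. The raised share was thus above that of all probes in the dim and middle classes and below it in the bright class. Negative-sequence spots that were called detected on both arrays passed the folds as well, with 20.1% of the 422 at 1.5 or more and 18.2% at 0.7 or less, about as many each way. Those spots repeat at most 20 sequences, so they are not independent of one another.

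**Figure D2:**
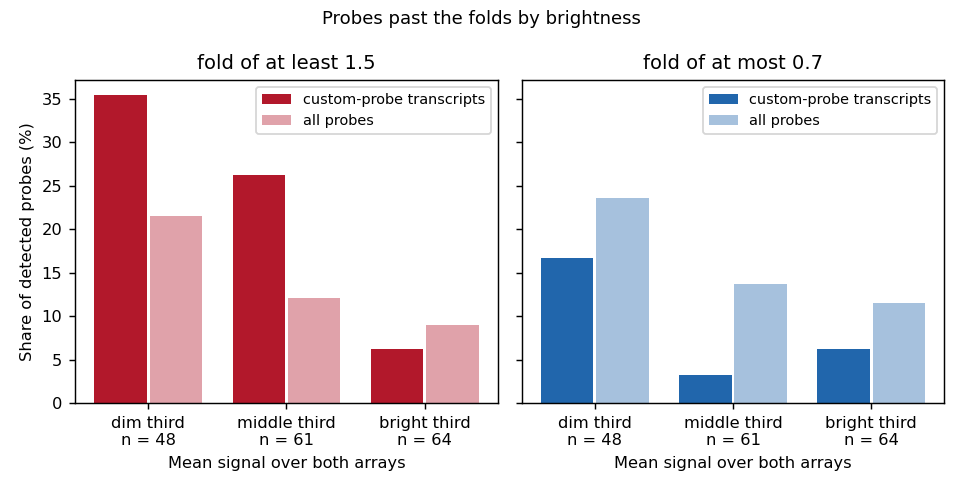
Share of detected probes (%) with an I/R over control fold of at least 1.5 (left) and at most 0.7 (right) in 3 classes of mean signal over both arrays, for custom-probe transcripts (dark bars, n under each class) and all probes (light bars). The raised share of the custom-probe transcripts is 35.4%, 26.2% and 6.25% from dim to bright, against 21.5%, 12.1% and 9.03% of all probes.

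Among the 138 transcripts well above background on both arrays, 24 (17.4%) were raised and 7 (5.07%) lowered, beside 11.3% and 12.5% of all probes under the same flag. For all 24 and all 7 the measurement interval lay on one side of 1, as it did for 96.2% of the raised and 93.3% of the lowered among all probes (10.8% and 11.7% of all probes under this flag). At 2-fold, 6 of the 138 (4.35%) were raised, beside 4.71%. Whatever the size of the fold, the interval lay above 1 for 30 of the 138 (21.7%), beside 15.5% of all probes, and below 1 for 14 (10.1%), beside 15.8%. Of the 24 rises, 4 had a flagged local background, and without such spots 20 of 127 were raised and 7 lowered. Among the 100 transcripts above the negative-sequence level on both arrays, 12 (12%) were raised and 6 (6%) lowered, beside 8.67% and 11.5% of all probes. With normexp, which starts from the median signal of a spot in place of its processed signal, models the background and adds an offset of 50, 8 of the 138 were raised and 3 lowered, beside 5.49% and 5.69% of all probes.

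More of the rises were AK cDNAs than any other kind. Of the 39 AK cDNAs well above background on both arrays, 13 (33.3%) were raised and 2 (5.13%) lowered, and the median log2 fold was 0.24. The signal was higher on the I/R array for 25 of the 39. Of the 53 Ensembl transcripts 7 (13.2%) were raised and 4 (7.55%) lowered, with a median of -0.01, and of the 36 UCSC known genes 3 (8.33%) and 1 (2.78%), with a median of -0.03. Of the 10 RefSeq, EST and other GenBank transcripts 1 was raised and 0 were lowered. All custom probes other than the AK cDNAs together had 11 of 99 raised (11.1%), a share like the 11.3% of all probes. No test of these differences was run, since probes on 1 array are not replicates.

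AK cDNAs also occur outside the custom block, under lincRNA-style probe names. Of 59 such probes well above background on both arrays, 15 (25.4%) were raised and 4 (6.78%) lowered, with a median log2 fold of 0.09. So the larger share of rises among AK cDNAs was seen in both sets of probes, which share the arrays. The AK cDNAs were dimmer than the other custom-probe transcripts, with a median normalized control signal of 86.3 against 332 among those that passed the stricter flag. Within the dim and middle classes, 11 of 29 AK cDNAs (37.9%) were raised, beside 9 of 45 other custom-probe transcripts (20%) and 12.9% of all probes. Above the negative-sequence level, 8 of 28 AK cDNAs (28.6%) were raised, beside 8.67% of all probes, and 2 were lowered. With normexp 4 of 39 were raised, beside 5.49% of all probes. With AK cDNAs of flagged local background left out, 11 of 35 were raised. What brightness contributes to the AK share beyond these values was not tested.

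**Figure D3:**
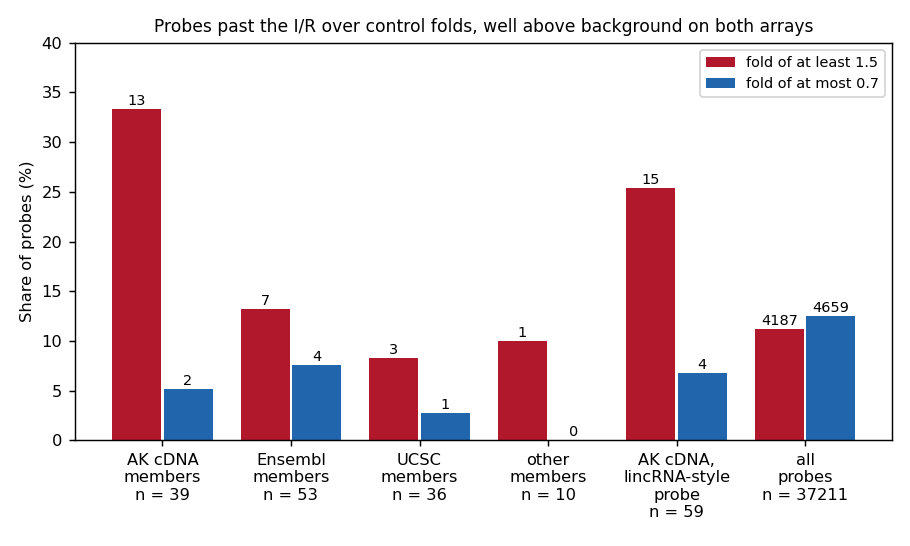
Share (%) of probes well above background on both arrays with an I/R over control fold of at least 1.5 (red) and at most 0.7 (blue), by kind of identifier (RefSeq, EST and other GenBank pooled as other members), with counts above the bars and the number of probes below. The raised share is 33.3% for AK cDNAs on custom probes and 25.4% for those on lincRNA-style probes, beside 11.3% of all probes.

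By fold, the leading rise was that of uc009shf.1, a UCSC known gene. Its signal was 66.7 on the control array and 274 on the I/R array, a fold of 4.10 (3.07 to 5.46). It belongs to a run of 6 custom-probe transcripts whose UCSC identifiers begin with uc009sh, and each of the 6 passed the stricter flag. The other 5 did not pass either threshold. Their folds were 1.2 for uc009she.1, 0.955 for uc009shg.1, 1.22 for uc009shi.1, 0.865 for uc009shj.1 and 1.04 for uc009sho.1. The genome positions of these transcripts are not in the files used here, so it is not known here whether they overlap.

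ENSMUST00000159764 stood apart from the other rises by its brightness. Its signal was 4746 on the control array and 18881 on the I/R array, a fold of 3.93 (2.98 to 5.19). It changed little with the processing, with folds from 3.95 to 4.05 under 5 other ways of treating the signals, under which the fold of the dimmer uc009shf.1 ran from 2.57 to 4.30.

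Of the 8 largest rises, 3 were AK cDNAs, all of moderate or low signal. AK087896 went from 86.5 on the control array to 219 on the I/R array, a fold of 2.52 (1.89 to 3.35). AK171173 went from 39.0 to 95.1, a fold of 2.45 (1.79 to 3.35). AK154753 went from 20.9 to 44.6, a fold of 2.17 (1.46 to 3.22). Their intervals overlap one another, so the 3 have no order beyond the spot error. With normexp the folds were 1.82, 1.54 and 1.37, the last below the threshold. The other 10 raised AK cDNAs had folds of 1.54 (AK138450) to 1.82 (AK007945), and the brightest of them, AK021355, went from a signal of 997 to 1633. AK007945 was dim, at 14.2 and 25.2, and its local background was flagged on both arrays, as was that of AK020382 (fold 1.59). AK154753, AK007945 and AK035192 lay below the 95th percentile of the negative-sequence spots on both arrays. AK171173 and AK138450 lay below it on the control array.

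The remaining 3 of the 8 were dim as well. ENSMUST00000118584 went from 51.2 to 104, a fold of 2.04 (1.51 to 2.76), and its local background on the I/R array was flagged. BC094434 went from 31.1 to 60.2, a log2 fold of 0.97 (interval of the fold 1.40 to 2.75). ENSMUST00000171886 went from 27.5 to 53.2, a log2 fold that was also 0.97 (interval of the fold 1.38 to 2.79). All 3 were below 60 on the control array, close to the level that negative-sequence spots reach, and with normexp none of them passed 1.5, at 1.49 for ENSMUST00000118584, 1.40 for BC094434 and 1.30 for ENSMUST00000171886.

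The other 6 rises outside the AK cDNAs were 4 Ensembl transcripts and 2 UCSC known genes, named here after their values were seen. ENSMUST00000146697 went from 120.3 on the control array to 236 on the I/R array, a fold of 1.95. The brightest, uc008sno.1, went from 462 to 884, a fold of 1.87. Both lay above the 95th percentile of the negative-sequence spots on both arrays. ENSMUST00000096847 went from 13.8 to 23.7, a fold of 1.75, with the local background flagged on the I/R array. ENSMUST00000121804 (24.2 to 38.9), ENSMUST00000118930 (52.3 to 79.4) and uc009vfx.1 (28.0 to 42.1) had folds of 1.63, 1.53 and 1.52. These 4 were dim on the control array. ENSMUST00000096847, ENSMUST00000121804 and uc009vfx.1 lay below that percentile on both arrays, and ENSMUST00000118930 on the control array.

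The ESTs and the other GenBank cDNAs are small groups, and 6 of the 13 passed the stricter flag. Among these 6, which were also named after their values were seen, BC094434 alone passed a threshold. The brightest of them, the EST BB580022, went from 7365 on the control array to 5338 on the I/R array, a fold of 0.719 (0.545 to 0.949), lower by more than the spot error and short of the 0.7 used to call a fall. The EST CF616602 went from 544 to 608, a fold of 1.07, and the cDNA BC027568 from 309.7 to 285, a fold of 0.905, and the intervals of both hold 1.

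The falls were fewer and smaller than the rises. AK157254 fell from a signal of 300.4 on the control array to 151 on the I/R array, a fold of 0.495 (0.374 to 0.656). It was the only one of the 138 at 0.5 or less, which is 0.725% of them, beside 2.32% of all probes under the same flag. AK087215 went from 235 to 154, a fold of 0.648 (0.489 to 0.859). The other 12 AK cDNAs that were lower on the I/R array and well above background had folds above 0.7.

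Of the 7 falls, 4 were Ensembl transcripts, and 2 of these were bright. ENSMUST00000100598 fell from 2032 on the control array to 1188 on the I/R array, a fold of 0.570 (0.432 to 0.753). ENSMUST00000166763 fell from 1832 to 1253, a fold of 0.664 (0.503 to 0.876). Both lay well above the 95th percentile of the negative-sequence spots on both arrays. ENSMUST00000099215 went from 469.8 to 323, a fold of 0.670 (0.507 to 0.885), and ENSMUST00000146670 from 106 to 68.9, a fold of 0.652 (0.484 to 0.878). The UCSC known gene uc007prv.1 was the dimmest of the falls, going from 41.7 to 26.1, a fold of 0.632 (0.425 to 0.941). The next transcript in order, uc008idj.1, had signals of 34.1 and 23.7 and a fold of 0.706 (0.463 to 1.08), which does not pass the threshold and whose interval holds 1. With normexp 4 of the 7 falls no longer passed, uc007prv.1 at 0.875, ENSMUST00000146670 at 0.777, ENSMUST00000099215 at 0.725 and AK087215 at 0.711.

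**Figure D4:**
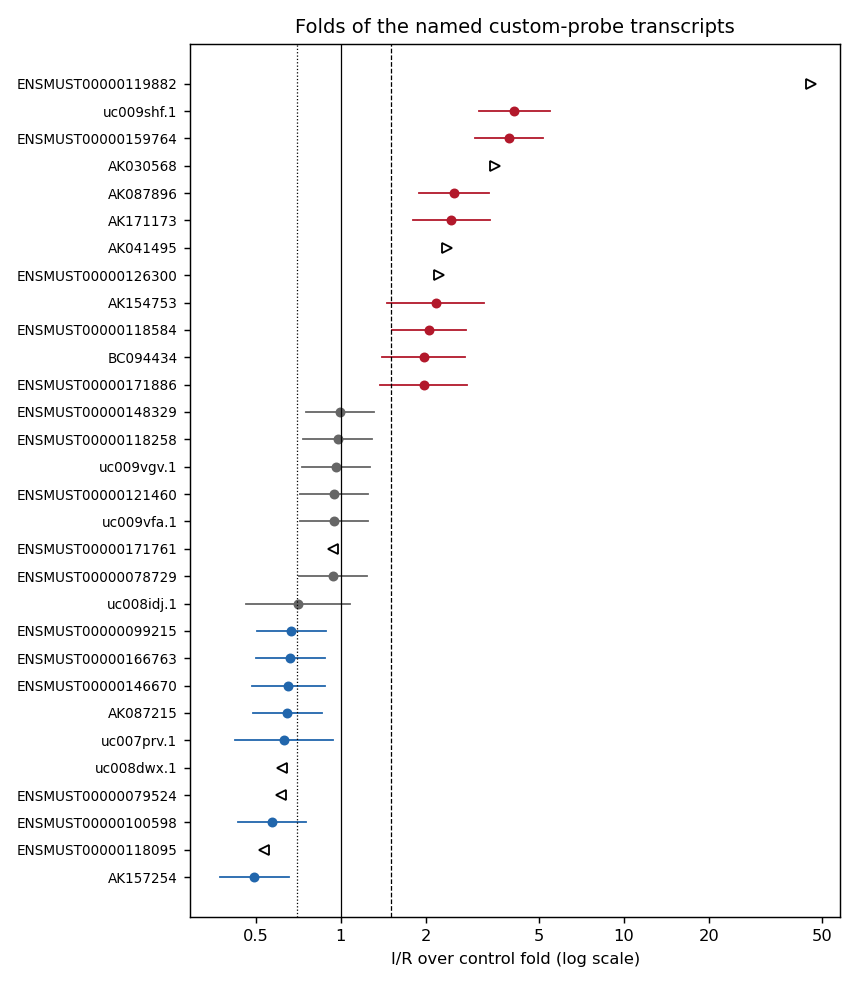
I/R over control fold (horizontal, logarithmic axis) of the 30 transcripts named by rule. Filled points with bars are folds with their 95% spot measurement intervals, red where the interval lies above 1, blue where it lies below 1 and grey where it holds 1. Open triangles are bounds for transcripts well above background on 1 array, pointing in the direction of the change and drawn without the spot error. ENSMUST00000119882, with a bound of 45.8, lies far to the right of the rest.

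A transcript that was well above background on 1 array only has a bound, the brighter normalized signal against the lowest one well above background on the other array (or its own, where that is higher). The bound leaves out the error of both spots, so it is not a minimum of the change. The measurement interval of the fold is therefore given beside it. Of the 5 that were above background on the I/R array alone, 4 are named by rule. ENSMUST00000119882 had a signal of 9.20 on the control array and 582 on the I/R array. Its bound was 45.8-fold higher (interval of the fold 35.0 to 118). Its local background was flagged on both arrays, and no second probe in the files carries its identifier. AK030568 went from 11.8 to 43.7, a bound of 3.51-fold higher (interval of the fold 2.23 to 6.39). AK041495 went from 11.1 to 29.4, a bound of 2.37-fold higher (1.53 to 4.85). ENSMUST00000126300 went from 3.94 to 27.4, a bound of 2.22-fold higher (2.02 to 28.0). The bound of the fifth, ENSMUST00000168246, was 1.79-fold higher (1.09 to 3.60). These last 4 are dim on both arrays, below the level that negative-sequence spots reach.

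Of the 11 that were above background on the control array alone, 3 had a bound beyond the lower threshold. ENSMUST00000118095 had a signal of 32.9 on the control array and 11.7 on the I/R array. Its bound was 1.86-fold lower (interval of the fold 0.190 to 0.707). ENSMUST00000079524 went from 28.6 to 12.4 and uc008dwx.1 from 28.5 to 17.0, each with a bound of 1.62-fold lower. The interval of the fold was 0.233 to 0.835 for ENSMUST00000079524. For uc008dwx.1 it was 0.364 to 1.02, which holds 1. All 3 are dim on both arrays. The fourth in order, ENSMUST00000171761, went from 18.9 to 8.96, and its bound of 1.06-fold lower does not pass the threshold. The lowest signal well above background was higher on the I/R array, so a dim transcript passes the flag more easily on the control array, and a transcript that passes on the I/R array alone has a larger bound from the start. Neither the counts of 5 and 11 nor the sizes of the bounds compare the groups.

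At the other end, 21 custom-probe transcripts (9.86%) had a signal of at least 10000 on both arrays, beside 3.90% of all probes. They were 18 Ensembl transcripts (23.7% of the 76), 3 UCSC known genes and 0 AK cDNAs. Brightness also depends on the probe, so it is no measure of the amount of one RNA against another. Of the 21, 0 passed a threshold in either direction. The set asks for brightness on both arrays, so a transcript that is bright on 1 array alone, such as ENSMUST00000159764, is not in it. Their folds ran from 0.735 to 1.22 with a median of 0.977, while 4.04% and 4.51% of all probes of that brightness were raised and lowered, shares at which a list of 21 would hold about 1 each way.

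The brightest on the control array was uc009vfa.1, with a signal of 410079 there and 394371 on the I/R array, a fold of 0.944. ENSMUST00000121460 followed with 321970 and 311439, a fold of 0.947. Both folds were just under 1, and with cyclic loess normalization both lay at 1.01. The next 4 were uc009vgv.1 (186349 and 168102, fold 0.963), ENSMUST00000118258 (157849 and 143722, 0.974), ENSMUST00000148329 (154701 and 143760, 0.995) and ENSMUST00000078729 (144016 and 128078, 0.938). The measurement intervals of all 6 hold 1, so the I/R array was not distinguishable from the control array for the 6 brightest.

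Other runs of neighbouring UCSC identifiers also varied within the run. Of the 4 transcripts that begin with uc009vf, all well above background on both arrays, folds ran from 0.753 (uc009vft.1) to 1.52 (uc009vfx.1), and control signals from 13.3 to 410079. The 3 that begin with uc008og had folds of 0.765 to 1.21 and signals of 359.8 or more on both arrays. The intervals of these 3 folds all hold 1. In 2 further runs the detected transcripts were both lower on the I/R array, at 0.706 and 0.947 in uc008id and at 0.759 and 0.912 in uc009vh, with intervals that hold 1.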

How the data were processed

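The authors hybridized rRNA-depleted, randomly primed and Cy3-labelled cRNA of each group to 1 array and extracted the spots with Agilent Feature Extraction 11.0.1.1. For each spot the authors deposited an intensity, the background-subtracted green signal of the software, and the series value table held the same intensities without normalization for all 62513 spots. The quantile normalization and the thresholds of 1.5 and 0.7 follow the study's methods. The flag required on both arrays is the nearest available to the study's present or marginal filter, and not that filter itself. By these rules 37 custom-probe transcripts were raised and 14 lowered, while 0 custom-probe transcripts are on the study's lists. The reason was not tested.

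Here the 20 negative-sequence probes, control spots and spots flagged as outliers were removed. The log2 signals, averaged over repeated spots, were quantile-normalized in R 4.3.3 with limma 3.58.1, and values were summarised in Python 3.11.15 (numpy 2.4.6, pandas 2.3.3, scipy 1.17.1, matplotlib 3.10.9). The steps were tested on simulated data. Intervals span 1.96 standard errors either way from the log2 fold. With 1 array per group, the number of arrays limits the precision. Repeated spots of 15 mRNA probes had a pooled SD of 0.10 on the log2 fold.

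Named were the 8 largest rises and falls, the 4 largest bounds each way, the 6 brightest transcripts, members on the study's lists (0) and transcripts with 3 or more probes (0). Members, lists and rules were chosen with earlier results of these data known. Sequences and positions of the custom probes were not in the sources used here, and the promoter is RefSeq's for GRCm38.p6, matched by accession and symbol.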

Additional observations from a re-analysis of the deposited data

How the results depend on the processing

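Against 37 custom-probe transcripts raised and 14 lowered among the 173 detected, there were 24 and 7 under the stricter flag, 13 and 5 past 2-fold, and 9 and 3 with normexp. The filter and the higher threshold lower the counts by construction. Normexp changed the input signal (the median signal), the background model and the offset together, and which of them lowered the counts was not tested. With the interval required to exclude 1, 29 were raised and 9 lowered. Among the 138 well above background on both arrays, normexp gave 8 and 3, beside 5.49% and 5.69% of all probes. The other settings moved no count by over 1.5 times. Those were 75th percentile scaling, cyclic loess, the series table without normalization, outlier-flagged spots kept, no filter, 1 value per transcript, and flagged local background left out (added after seeing the data, as were normalizations combined with the stricter flag). Taking 1 value per transcript could not change a count, since each transcript has 1 probe. Keeping outlier-flagged spots could act only through the normalization, since 0 custom-probe spots were flagged as outliers. The raised count ran from 32 to 44 and the lowered from 14 to 17 under these other settings, and the median log2 fold from 0.00 to 0.09 over the settings that gave one. For normalizations other than quantile, shares of all probes are given under the stricter flag only. Cyclic loess moved the median of all detected probes from -0.06 to -0.00. Under the stricter flag it gave 28 raised and 7 lowered of the 138, beside 13.8% and 9.16% of all probes. With quantile normalization those shares of all probes were 11.3% and 12.5%, beside 24 raised and 7 lowered of the 138. For the falls, the distance of the custom probes from the array was thus smaller with cyclic loess. For the rises, the count of custom probes and the share of all probes both went up. Of the 22 named folds, all stayed within their measurement interval under those normalizations, and with normexp 6 left it. These were uc009shf.1 (2.57), AK087896 (1.82), AK171173 (1.54), AK154753 (1.37), ENSMUST00000118584 (1.49) and ENSMUST00000171886 (1.30). Direction was kept by all 22 except with cyclic loess, where it was 20. No paired analysis was possible because each group has 1 array. Dim signal limits the folds of most named rises, and a difference between mice cannot be read from 1 mixture.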
